A study of Drosophila melanogaster with 8 samples.

Results

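The learning and memory signalling genes described here are *rut*, *dnc*, *Pka-C1*, *CaMKII*, *orb2*, *Nf1*, *Fas2* and *gish*, 8 of the 16727 gene symbols counted. They were chosen by name, by a rule that used no value, though earlier results of these data were known. All 8 were found and passed the filter on low counts. RNA-seq was done on heads of adult flies, 1 to 2 weeks old and kept at 25 °C. The control strain was *w1118*, which carries a mutation of the *white* gene, and the mutant was *Top3b26*, a *Top3β* allele made by remobilizing a P element and derived from *w1118*. There were 4 libraries per genotype, each of bulk RNA from pooled heads, so fewer cells of a type and less RNA per cell cannot be told apart. The labels number the replicates but name no separate cultures, and p-values therefore measure only the spread between these samples, which may be technical.

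In *Drosophila*, odour learning takes place largely in the mushroom body, a paired structure of the central brain. A coincidence of odour and reinforcement raises cAMP in its neurons through the adenylyl cyclase Rutabaga, the phosphodiesterase Dunce breaks cAMP down, and protein kinase A carries the signal onward. Calcium acts in parallel through calmodulin and CaMKII, and long-lasting memory needs local protein synthesis, in which the RNA-binding protein Orb2 takes part. Neurofibromin, the adhesion molecule Fasciclin 2 and the casein kinase Gilgamesh are further proteins whose mutants learn or remember poorly.

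The targeted gene was measured first. *Top3β* (X, 6284138 to 6287990 in dm6, minus strand, 5 exon blocks) had 34.04, 40.6, 27.8 and 23.8 CPM (counts scaled to the library's total on genes) in *w1118* replicates 1 to 4. It had 91.6, 79.9, 44.4 and 42.3 CPM in *Top3b26* replicates 1 to 4. Every library labelled *Top3b26* therefore lay above every *w1118* library although the label names a mutant of this gene, and these samples are called the libraries labelled *Top3b26* throughout. Its log2 fold change was 0.90 (SE, the standard error, 0.24; adjusted p = 0.157 in the quasi-likelihood test of edgeR), and 0.86 when the number of the replicate entered the fit as a block (adjusted p = 0.0129 from edgeR).

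The libraries held 3301976 to 7591510 counts on genes, and 3 counts corresponded to 0.395 to 0.909 CPM. The members had 627 to 6817 counts in each library and lay far above that floor. In both genotypes a header line stands in the count files of replicates 1 and 2 and is missing from replicates 3 and 4, and libraries of the same genotype differed more between these pairs than within them (chi-square per degree of freedom over genes 46.1 to 85.1 against 5.14 to 7.52). The tissue was checked against marker genes: the summed CPM of 8 neuron markers was 8594 to 9032 in *w1118* and 8900 to 11360 in the libraries labelled *Top3b26*, and that of 6 testis markers was 1.32 to 5.15 and 1.795 to 2.51, near 0. The sum of 8 photoreceptor markers was 33980 to 49420 CPM in *w1118*, 24290 and 29920 CPM in *Top3b26* replicates 3 and 4, but 2515 and 2344 CPM in *Top3b26* replicates 1 and 2. These last libraries stand apart, so values for replicates 3 and 4 alone, which leave them out, are given beside the members' results. Fat body markers differed in the other pair, with sums of 29220 and 39850 CPM in *w1118* replicates 3 and 4 against 7050 and 8696 CPM in *Top3b26* replicates 3 and 4. In replicates 1 and 2 these sums were 9581 and 6967 CPM in *w1118* and 6502 and 11260 CPM in the libraries labelled *Top3b26*.

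The 8 genes lie on X, 2L, 3L, 3R and chromosome 4, and were expressed at moderate to high levels in the head. Levels were compared per kilobase of exon (RPKM from the counts and the union of annotated exons, mean ± SD over all 8 libraries). *CaMKII* at 186 ± 26.6 and *Pka-C1* at 155 ± 8.39 stood at the top. *CaMKII* lay above *Pka-C1* in 8 of 8 libraries, although their ranges over libraries overlapped. A gap followed, the only pair of neighbours in this order whose ranges did not overlap. The levels of *orb2* (56.9 ± 14.9), *dnc* (52.2 ± 10.3) and *gish* (51.1 ± 13.5) could not be ordered: *orb2* lay above *dnc* in 5 libraries and *dnc* above *gish* in 2. Then came *rut* with 41.7 ± 9.37 RPKM, *Fas2* with 34.1 ± 4.48 RPKM and *Nf1* with 23.5 ± 4.45 RPKM. *gish* lay above *rut* in 6 libraries, and *rut* above *Fas2* and *Fas2* above *Nf1* in 8 of 8, although these ranges overlapped. Relative spread over the libraries differed among the members, with coefficients of variation from 5.43% for *Pka-C1* to 26.1% for *orb2* and 26.3% for *gish*.

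The question of the design is whether these genes differ between the mutant and the control. With all 8 libraries, 0 of the 8 genes were called different (adjusted p no higher than 0.05 and 1.5-fold or more, edgeR), where 0.914% of the 9633 genes tested were called. At an unadjusted p of at most 0.05 the count in this fit was also 0 of 8, against 12.4% of all genes. *Nf1* came nearest, with an unadjusted p of 0.0507 in edgeR. Its unadjusted p was 0.0386 in DESeq2 and 0.024 in edgeR with a term for the pair of replicates. For those fits the share of all genes at that level was not computed. DESeq2 called 0 of 8, against 2.41% of all genes. The replicate block also called 0 of 8, against 3.82% of all genes, as did a term for the pair of replicates, against 5.60% of all genes. Of the log2 fold changes 4 were above 0 and the other 4 below, their median was 0.04, and their median absolute value was 0.12, against 0.18 for all genes tested. For 7 of the 8 genes, the 95% interval of the fold change lay wholly within 1.5-fold in either direction, so changes larger than that were outside the interval, and *gish* was the exception.

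**Figure D1:**
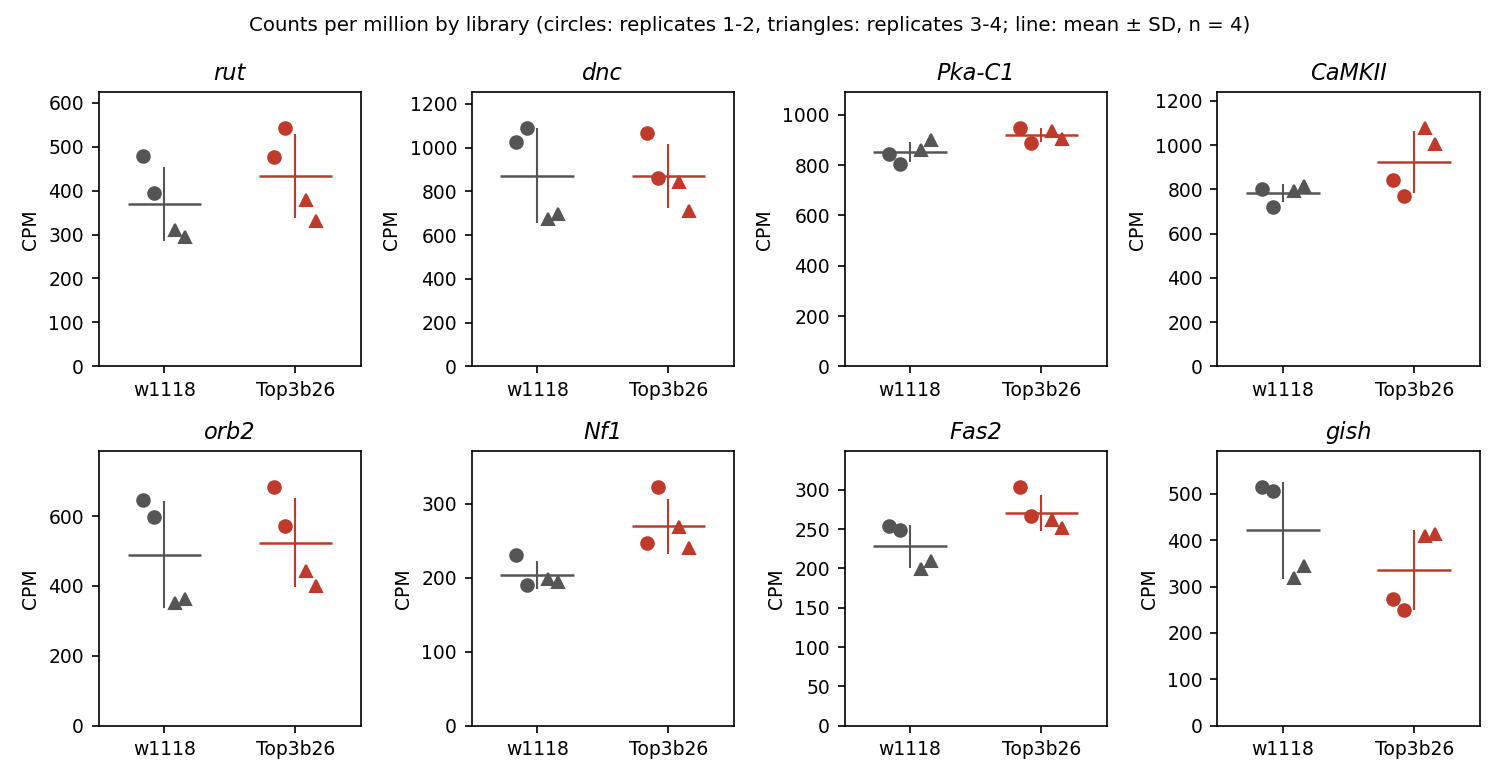
CPM (vertical axes, from 0) of each of the 8 genes in each library, with the libraries labelled *w1118* in grey and those labelled *Top3b26* in red; circles are replicates 1-2, triangles replicates 3-4, and lines the mean ± SD of 4. The genotypes overlap for all genes but *Nf1*, and for *gish* the red circles at 249 and 273 CPM lie below the grey ones while the red triangles at 408 and 414 CPM lie above theirs.

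Members of the cAMP pathway were considered first. *rut* (X, 14787478 to 14826073, minus strand), the calcium- and calmodulin-dependent adenylyl cyclase that makes cAMP, had 479, 395, 309.7 and 295 CPM in *w1118* replicates 1 to 4 and 477, 543, 378 and 331 CPM in the libraries labelled *Top3b26*. The genotypes overlapped, while in both of them replicates 1 and 2 lay above replicates 3 and 4. Its log2 fold change was 0.10 (SE 0.16, adjusted p = 0.854 from edgeR), with values of 0.08 in replicates 1-2 and 0.12 in replicates 3-4. Of its exon bases, 4.37% are shared with an antisense gene, *lncRNA:CR45522*, and reads from the 2 genes cannot be told apart there, since whether the counting used strand is not given in the sources used here.

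*dnc* (X, 3176440 to 3343767, plus strand) encodes the cAMP phosphodiesterase, and with 167.3 kb it was the longest of the 8 genes and shared no exon base with the 9 genes that overlap it. It had 1025, 1091, 674 and 696 CPM in *w1118* and 1067, 863, 844 and 711 CPM in the libraries labelled *Top3b26*. All 4 of the latter lay within the *w1118* range, and the means were 872 ± 217 and 871 ± 147 CPM (SD, n = 4). It had a log2 fold change of -0.12 (SE 0.17, adjusted p = 0.821 from edgeR). Its sign changed between replicates 1-2 (-0.28, adjusted p = 0.172 from edgeR) and replicates 3-4 (0.07, adjusted p = 0.739 from edgeR), and neither value passed the threshold. With an exon length offset both values were negative, -0.29 and -0.05.

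*Pka-C1* (2L, 9682315 to 9699297, minus strand), the main catalytic subunit of protein kinase A, was the steadiest of the 8 genes. Its CPM was 845, 803, 859 and 898 in *w1118* and 948, 887, 937 and 904 in the libraries labelled *Top3b26*, and the upper end of the first group overlapped the lower end of the second. Its genotype difference was -0.02 on the log2 scale (SE 0.13, 95% interval of the fold 0.805 to 1.21, adjusted p = 0.972 from edgeR). This sign depends on the scaling: without edgeR's TMM factors, which correct for a few very abundant genes, the value was 0.11 (adjusted p = 0.664 from edgeR), on a scale where the median of all genes was 0.12 in place of -0.01. It was 0.01 in replicates 1-2 and -0.04 in replicates 3-4.

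The calcium-dependent kinase gave a similar picture. *CaMKII* (4, 1035288 to 1053703, minus strand), which can hold itself active after a calcium signal has ended, had 803, 722, 794 and 817 CPM in *w1118* and 840, 772, 1078 and 1003 CPM in the libraries labelled *Top3b26*. The high values were *Top3b26* replicates 3 and 4, and replicate 2 lay within the *w1118* range. Its log2 fold change was 0.12 (SE 0.18, adjusted p = 0.835 from edgeR). In replicates 3-4 alone it was 0.26 (SE 0.10, adjusted p = 0.114 from edgeR), and in replicates 1-2 -0.07.

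*orb2* (3L, 8937100 to 8954463, minus strand) encodes a cytoplasmic polyadenylation element binding protein whose self-assembly is needed for long-term memory. Its CPM was 645, 597, 352 and 363 in *w1118* and 683, 570, 442 and 401 in the libraries labelled *Top3b26*. Here, too, replicates 1-2 of both genotypes lay above replicates 3-4, and the genotypes overlapped. The log2 fold change was -0.02 (SE 0.21, adjusted p = 0.979 from edgeR), 0.10 without TMM factors, -0.14 in replicates 1-2 and 0.13 in replicates 3-4, and no value passed the threshold. *orb2* shares 14.81% of its exon bases with *CG43783* on the same strand, and counts from this stretch are uncertain.

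*Nf1* (3R, 25983013 to 25995737, plus strand), a Ras GTPase-activating protein that is also needed for cAMP signalling, was the only one of the 8 genes whose genotypes did not overlap in CPM. It had 231, 189.9, 199 and 194 CPM in *w1118* and 247, 323, 269 and 240.5 CPM in the libraries labelled *Top3b26*, all of the latter above all of the former (exact two-sided permutation test on log2(CPM + 1), p = 0.0286, the smallest that 4 against 4 allow). Such a separation, with the libraries labelled *Top3b26* higher, was found for 7.64% of all genes tested, and in either direction for 10.2%. With TMM factors *Nf1* in *Top3b26* replicate 1 lay within the *w1118* range, so that 0 of the 8 genes separated (exact two-sided permutation test for *Nf1*, p = 0.0571), against 8.32% of all genes. The log2 fold change of *Nf1* was 0.28 (SE 0.12, 95% interval of the fold 0.999 to 1.47), with an unadjusted p of 0.0507 and an adjusted p of 0.406 from edgeR. It was almost equal in replicates 1-2 (0.29, adjusted p = 0.23 from edgeR) and replicates 3-4 (0.27, adjusted p = 0.0946 from edgeR). Taken by replicate number and scaled with TMM factors, its ratio was 0.966, 1.57, 1.26 and 1.12 for numbers 1 to 4, above 1 in 3 of the 4.

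*Fas2* (X, 4132887 to 4206093, minus strand), a cell adhesion molecule of the immunoglobulin family that labels mushroom body axons, had 254, 249, 199.8 and 209 CPM in *w1118* and 304, 267, 262 and 252 CPM in the libraries labelled *Top3b26*. Only *Top3b26* replicate 4 lay within the *w1118* range. The log2 fold change was 0.12 (SE 0.10, 95% interval of the fold 0.933 to 1.27, adjusted p = 0.653 from edgeR). It was 0.03 in replicates 1-2 and 0.22 in replicates 3-4 (adjusted p = 0.16 from edgeR). On library totals the exact two-sided permutation test of 4 against 4 libraries gave p = 0.0571 for *Pka-C1* and *Fas2*. For the other genes except *Nf1* the same exact permutation test gave p = 0.171 to 0.886, in a family of 8 tests. With TMM factors the exact two-sided permutation test gave p = 0.886 for *Pka-C1* and p = 0.0857 for *Fas2*. All 4 libraries labelled *Top3b26* then lay within the *w1118* range for *Pka-C1*. For the other genes except *Nf1* the exact permutation test with TMM factors gave p = 0.2 to 0.971.

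*gish* (3R, 16272452 to 16304768, plus strand) encodes a casein kinase 1 of the gamma type, needed for olfactory memory and for glial migration in the developing eye. It behaved differently in the pairs of replicates. In *w1118* it had 515 and 506 CPM in replicates 1 and 2 and 319 and 345 CPM in replicates 3 and 4. In the libraries labelled *Top3b26* it had 273 and 249 CPM in replicates 1 and 2, the lowest of all 8 libraries, and 408 and 414 CPM in replicates 3 and 4. Over all libraries the groups overlapped, with means of 421 ± 104 and 336 ± 87.1 CPM (SD, n = 4) and a log2 fold change of -0.42 (SE 0.24, adjusted p = 0.53 from edgeR).

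In replicates 1-2 alone, *gish* fell by 1.11 on the log2 scale (SE 0.13, adjusted p = 1.23e-06 from edgeR), a ratio to the control of 0.462 with a 95% interval of 0.383 to 0.556. It was the 1 gene of the 8 called there, where 10.5% of all genes tested were called and 7.03% were called lower. In replicates 3-4 alone, *gish* had a log2 fold change of 0.20 (SE 0.09, adjusted p = 0.218 from edgeR), and 0 of the 8 genes were called, against 7.48% of all genes. The difference between the pairs of replicates was itself tested: the interaction term of *gish* was 1.29 on the log2 scale (SE 0.15, adjusted p = 1.79e-05 from edgeR), and it was the 1 gene of the 8 with an adjusted p of at most 0.05 there, against 7.31% of all genes. The other 7 genes had adjusted p-values of at least 0.294 for this term.

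**Figure D2:**
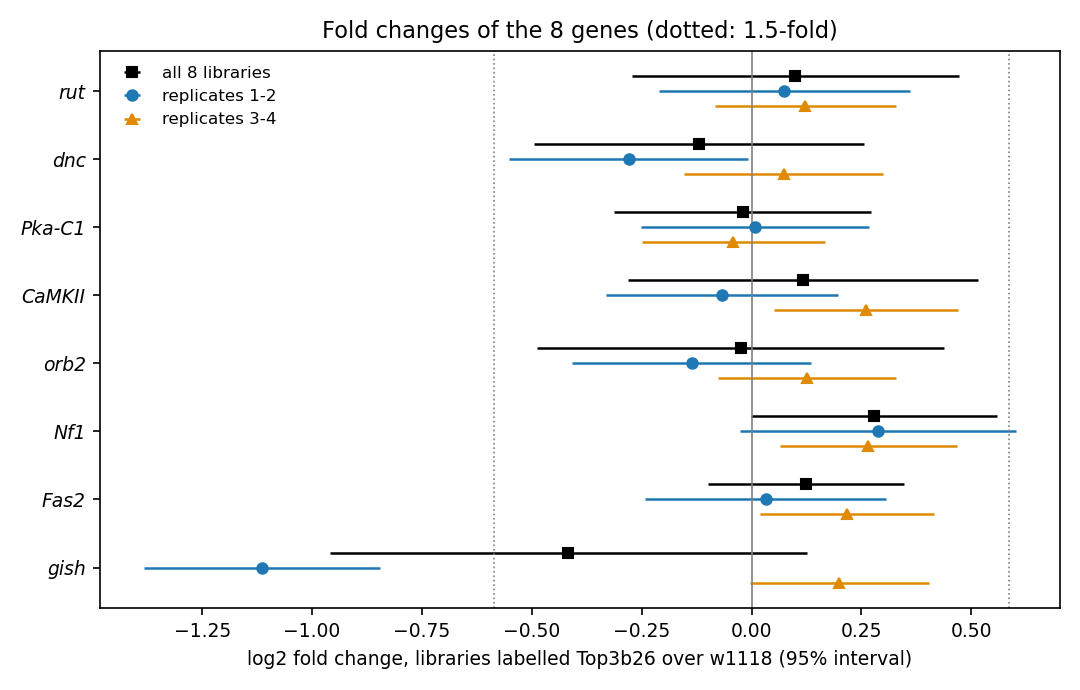
Log2 fold change of the libraries labelled *Top3b26* over *w1118* (horizontal axis) for each gene, with 95% intervals from edgeR, over all 8 libraries (black squares), replicates 1-2 (blue circles) and replicates 3-4 (orange triangles); dotted lines mark 1.5-fold. *gish* at -1.11 in replicates 1-2 is the only point beyond a dotted line, and its value in replicates 3-4 is 0.20.

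Like *gish*, photoreceptor markers were low in *Top3b26* replicates 1 and 2. All 8 of 8 of these markers were called lower in replicates 1-2, against 7.03% of all genes. *ninaE*, the main rhodopsin, had a log2 fold change of -5.66 there (20030 and 23650 CPM in *w1118* against 464 and 488 CPM in the libraries labelled *Top3b26*). In replicates 3-4, 5 of the 8 were called lower, against 5.95% of all genes, and their summed level was 37020 and 33980 CPM against 24290 and 29920 CPM. The median log2 fold change of the 8 markers was -0.67 in this pair, opposite in sign to that of *gish*. Their part in the result for *gish* was not tested. Neuron markers had 0 of 8 called in either pair of replicates, against 10.5% of all genes in replicates 1-2 and 7.48% in replicates 3-4. Their median log2 fold change was -0.18 in replicates 1-2 and 0.17 in replicates 3-4, the same signs as *gish*. The summed level of 6 glia markers was 1623 to 2447 CPM in *w1118* and 1876 to 2890 CPM in the libraries labelled *Top3b26*. Of these markers 2 of 6 were called higher in replicates 1-2, against 3.50% of all genes. Without *Top3b26* replicates 1 and 2, in a fit of replicates 3 and 4 of that label against all 4 *w1118* libraries with the pair of replicates as a term, *gish* had a log2 fold change of 0.21 (adjusted p = 0.313 from edgeR) and 0 of the 8 genes were called, against 6.46% of all genes.

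**Figure D3:**
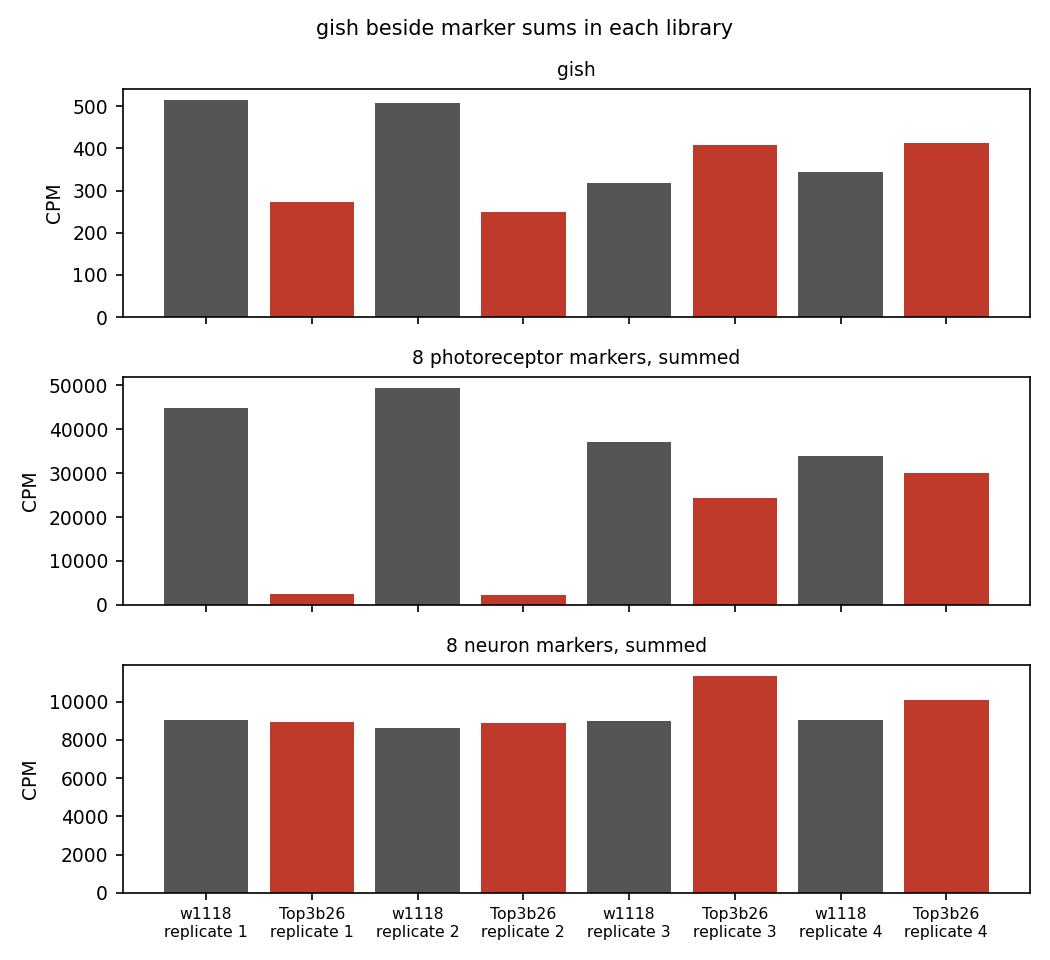
CPM of *gish* (top), of 8 photoreceptor markers summed (middle) and of 8 neuron markers summed (bottom) in each library, in grey for *w1118* and red for the libraries labelled *Top3b26*. *gish* and the photoreceptor sum are both lowest in *Top3b26* replicates 1 and 2, at 273 and 249 CPM and at 2515 and 2344 CPM, while the neuron sum stays between 8594 and 11360 CPM.

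Other genes shared the pattern of *gish*. Being called lower in replicates 1-2, with a positive value in replicates 3-4 and an interaction term at an adjusted p of at most 0.05, was seen in 164 of 9396 genes, or 1.75%. Within 100 kb of *gish*, 21 other genes were tested. Their log2 fold changes had a median of -0.03 in replicates 1-2 and of 0.06 in replicates 3-4. The closest in value to *gish* was *CG8927*, with -1.05 (adjusted p = 0.239 from edgeR) and 0.33, also chosen after its values were seen. For its interaction term, 1.37, the adjusted p was 0.0981 in edgeR, the smallest among the 21 neighbours. Of the 21, 1 was called in each pair of replicates, *CG8925*, which was chosen for mention after its values were seen and was lower in both (-4.32 and -2.02).

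Within replicates 3-4, all 8 genes were higher in both libraries labelled *Top3b26* than in both *w1118* libraries when counts were scaled to library totals. This was found for 41.9% of all genes on that scale, where the median log2 fold change of all genes in this pair was 0.115. With TMM factors it held for 4 of the 8 genes, *CaMKII*, *Nf1*, *Fas2* and *gish*, against 24.5% of all genes. Within replicates 1-2, scaled to library totals, *Pka-C1*, *Nf1* and *Fas2* were higher without overlap and *gish* was lower, 4 of 8 against 59.6% of all genes in either direction. With TMM factors *dnc* and *gish* were lower without overlap and none was higher, against 54.8% of all genes in either direction.

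The pairs of replicates differed from each other more often than the genotypes did. With genotype in the model, 3 of the 8 genes had an adjusted p of at most 0.05 for replicates 3-4 over replicates 1-2, against 35.6% of all genes. *orb2* and *rut* were lower in replicates 3-4, with log2 fold changes of -0.52 (adjusted p = 0.00185 from edgeR) and -0.36 (adjusted p = 0.0136 from edgeR). *CaMKII* was higher there, with 0.39 (adjusted p = 0.0112 from edgeR). With an exon length offset *Pka-C1* passed as well (0.23, adjusted p = 0.0447 from edgeR), 4 of 8 against 37.5% of all genes. None of these reached 1.5-fold in the fit without the offset, against 18.6% of all genes that did so. Markers of other cells moved between the pairs too: the summed level of 6 muscle markers was on average 2917 and 7832 CPM in *w1118* replicates 1-2 and 3-4, and 3857 and 10700 CPM in the libraries labelled *Top3b26*. With genotype in the model, 5 of 6 muscle and 5 of 6 glia markers were higher in replicates 3-4, against 20.3% of all genes. The threshold was an adjusted p of at most 0.05 in edgeR. The other glia marker, *repo*, was lower (-0.475, adjusted p = 0.0154 from edgeR). The other muscle marker, *Act88F*, had -0.246 (adjusted p = 0.639 from edgeR). Among neuron markers, *nSyb* (0.612) and *Syt1* (0.661) were higher and *Syx1A* (-0.458) lower at that threshold. The part of all these markers in the values of *orb2*, *rut* and *CaMKII* was not tested.

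**Figure D4:**
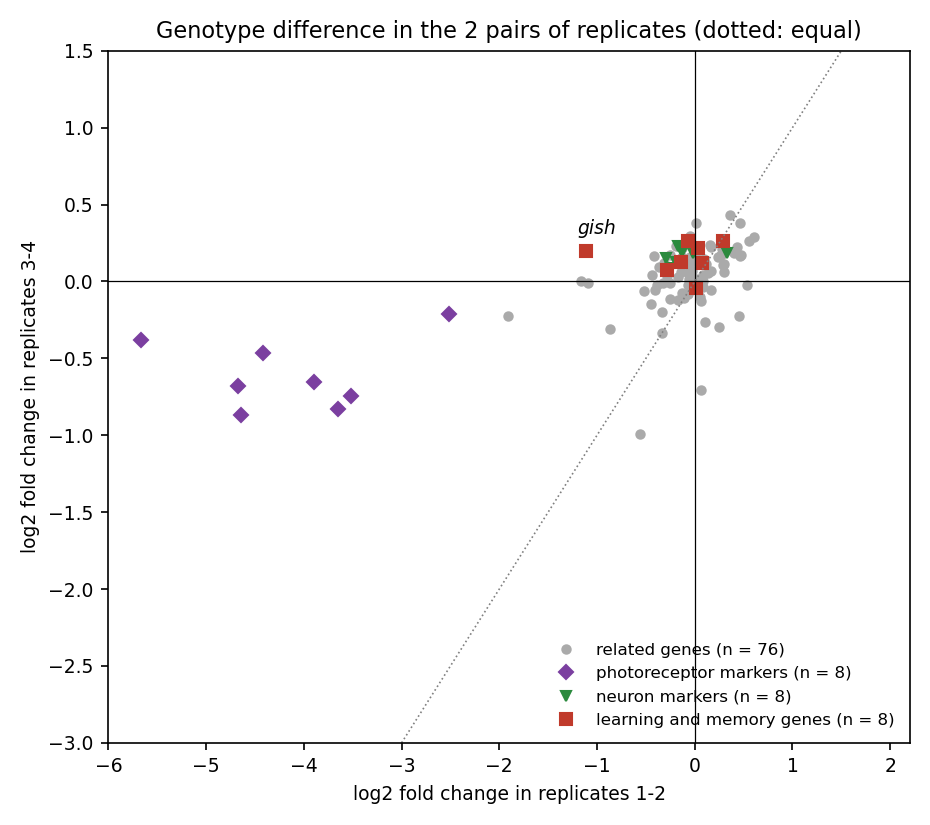
Log2 fold change of the libraries labelled *Top3b26* over *w1118* in replicates 1-2 (horizontal axis) and replicates 3-4 (vertical axis, other scale) for the 8 genes (red squares), 76 related genes (grey), 8 photoreceptor markers (purple) and 8 neuron markers (green). The other 7 red squares lie close to 0 on both axes, and *gish* lies at -1.11 and 0.20, away from the dotted line of equal values.

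Further genes of the same pathways were listed by role, 78 in all, of which 76 passed the filter on low counts (*Pka-C2* and *nos* did not). Over all 8 libraries 0 of the 76 were called, against 0.914% of all genes, 41 had positive and 35 negative log2 fold changes, and their median was 0.02. At an unadjusted p of at most 0.05 there were 10 of 76, against 12.4% of all genes, and DESeq2 called 1, against 2.41% of all genes. The replicate block also called 1, against 3.82% of all genes, and a term for the pair of replicates called 3, *amn*, *CrebA* and *Pp2B-14D*, all lower, against 5.60% of all genes. Examples were taken as the 2 genes of each list with the smallest p.

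Among the other cAMP and PKA genes, 0 of 22 were called, with 13 positive and 9 negative values. *Pde1c*, a calcium- and calmodulin-dependent phosphodiesterase, had 279, 300.4, 227 and 227 CPM in *w1118* and 401, 422, 337 and 324 CPM in the libraries labelled *Top3b26*. Its libraries did not overlap, as was found in this direction for 7.64% of all genes tested. Its log2 fold change was 0.40 (SE 0.11, adjusted p = 0.182 from edgeR). In replicates 3-4 alone it was 0.43 (adjusted p = 0.00676 from edgeR), under 1.5-fold. *CrebA*, a transcription factor of the CREB3 family that acts on secretory genes, had a log2 fold change of -0.60 (SE 0.17, adjusted p = 0.189 from edgeR). With the pair of replicates as a term it was -0.59 (adjusted p = 0.0292 from edgeR), which passed both thresholds, and in replicates 3-4 alone -0.31 (adjusted p = 0.171 from edgeR).

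In the calcium and calmodulin list, 0 of 10 were called, with 5 positive and 5 negative values. *Pp2B-14D*, a catalytic subunit of the phosphatase calcineurin, had 182, 169, 138 and 134 CPM in *w1118* and 123, 141, 77.8 and 69.8 CPM in the libraries labelled *Top3b26*. Within each pair of replicates the libraries labelled *Top3b26* were the lower ones. Taken singly, such a separation was found for 17.8% of all genes in replicates 1-2 and for 17.7% in replicates 3-4. The share of genes lower in both pairs was not computed. The log2 fold change was -0.74 (SE 0.19, adjusted p = 0.151 from edgeR), while the fit with replicate blocks gave -0.78 (adjusted p = 0.0147 from edgeR), which passed both thresholds. *CaMKI*, another kinase activated by calmodulin, had -0.29 (adjusted p = 0.473 from edgeR), and -0.14 in replicates 3-4 alone.

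Genes of the Ras and MAP kinase pathway, on which *Nf1* acts, were called in 0 of 10 cases, with 7 positive and 3 negative values. *ksr*, a scaffold of the kinase cascade, had 59.05, 57.5, 54.8 and 50.9 CPM in *w1118* and 94.4, 94.98, 66.2 and 70.2 CPM in the libraries labelled *Top3b26*. The groups did not overlap, as was found in this direction for 7.64% of all genes tested. The log2 fold change was 0.42 (SE 0.11, adjusted p = 0.163 from edgeR), and 0.26 in replicates 3-4 alone. *Ras85D*, the fly Ras protein, had 0.33 (SE 0.12, adjusted p = 0.309 from edgeR), and 0.17 in replicates 3-4 alone.

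Of the translation genes 0 of 8 were called, and the log2 fold changes were -0.14 for *Atx2*, the RNA-binding protein Ataxin-2, and 0.10 for *Fmr1*, which encodes FMRP. Of the cell adhesion genes 0 of 7 were called, with 0.20 for *mew*, an integrin alpha subunit, and -0.19 for *dlg1*, a synaptic scaffold. Over all libraries the 4 other casein kinase genes had negative values, none of them called, among them *CkIIalpha* with -0.18 and *dco*, the clock kinase Doubletime, with -0.14. Their median was -0.31 in replicates 1-2 but 0.04 in replicates 3-4, where 3 of the 4 were positive. Over all libraries, the 6 genes named from these lists had adjusted p-values of at least 0.477 in edgeR. In the list of other memory genes 0 of 15 were called. *Nmdar1*, a subunit of the NMDA receptor, had 0.48 (adjusted p = 0.302 from edgeR) and *Pkc53E*, a protein kinase C, -0.29 (adjusted p = 0.384 from edgeR). These were 0.29 and -0.07 in replicates 3-4 alone. The median absolute value of this list, 0.21, was the largest of the 7 lists.

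**Figure D5:**
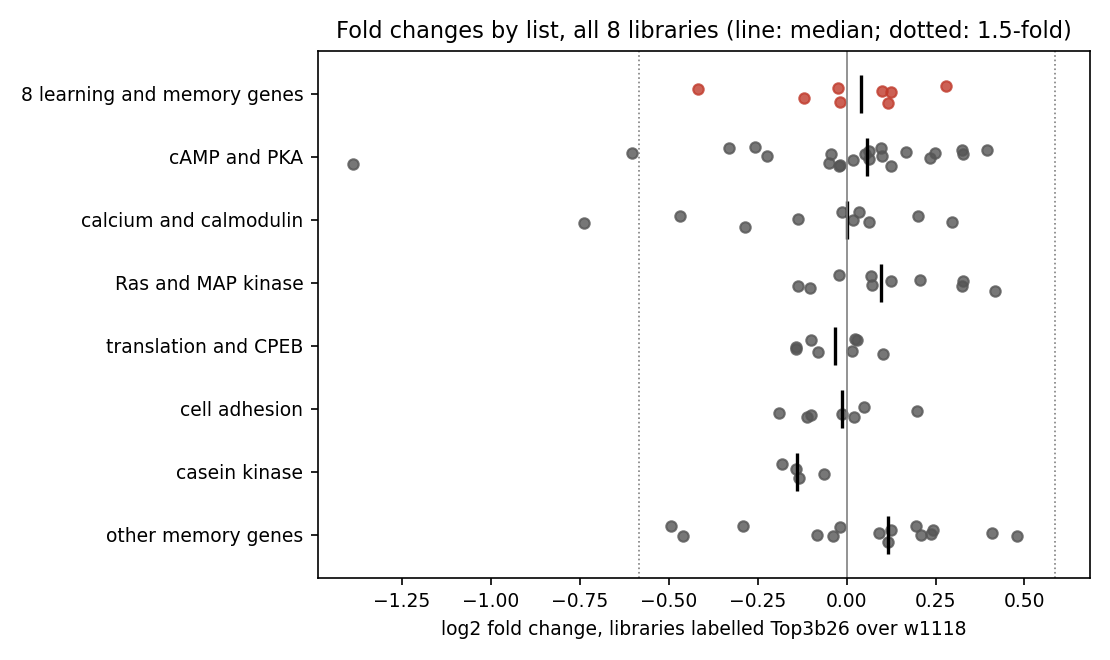
Log2 fold change of the libraries labelled *Top3b26* over *w1118* over all 8 libraries (horizontal axis), 1 point per gene, for the 8 learning and memory genes and for 7 lists of related genes; black lines are medians and dotted lines 1.5-fold. Medians lie between -0.14 and 0.12, and the 3 points left of the dotted line, *amn*, *Pp2B-14D* and *CrebA*, were not called in this fit.

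In replicates 1-2 alone, 5 of the 76 related genes were called, against 10.5% of all genes, 4 lower and 1 higher. Besides *CrebA* (-0.87) these were *amn*, *Cam* and *ben*, named here because they were called. *Cam*, which encodes calmodulin, had 7442 and 8798 CPM in *w1118* replicates 1 and 2 against 4457 and 3551 CPM in the libraries labelled *Top3b26*, but 7099 and 7582 against 8037 and 7830 CPM in replicates 3 and 4. Like *gish*, it was thus low in the same libraries as the photoreceptor markers, and their part in this was not tested. The log2 fold change of *Cam* in replicates 1-2 was -1.17 (SE 0.13, adjusted p = 1.12e-06 from edgeR), and its interaction term had an adjusted p of 5.7e-04.

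*ben*, a ubiquitin-conjugating enzyme, showed the same pattern, with 303 and 362 against 191 and 154 CPM in replicates 1 and 2 and 268 and 253 against 262 and 294 CPM in replicates 3 and 4 (interaction adjusted p = 7.63e-04 from edgeR). *amn*, a neuropeptide precursor, had 23.6 and 21.8 against 7.36 and 6.13 CPM in replicates 1 and 2 but under 5 CPM in all 4 libraries of replicates 3 and 4. The gene called higher was *Nmdar1* (0.61, adjusted p = 0.00476 from edgeR). In replicates 3-4 alone 2 of the 76 were called, against 7.48% of all genes, both lower: *Pp2B-14D* (-0.99) and *Tequila* (-0.71), a serine protease named because it was called. The interaction term had an adjusted p of at most 0.05 in 4 of the 76, *amn*, *Cam*, *ben* and *Tequila*, against 7.31% of all genes.

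Finally, the genes whose levels followed each member most closely were listed by Pearson's r of log2(CPM + 1) over the 8 libraries. These values describe 8 libraries that differ in depth and by pair of replicates, and carry no p. The closest to *gish* were *CG14615* (r = 0.986) and *gol* (0.977), and after each pair of replicates was centred r was 0.987 and 0.978. For *Nf1* they were *sli* (0.984), which encodes the axon guidance cue Slit, and *CG34383* (0.981), and for *CaMKII* *Lis-1* (0.986) and *CG14995* (0.973). For *rut* they were *simj* (0.996) and *CG18265* (0.993), but 748 genes had an r above 0.9 with *rut* and 569 with *orb2*, against 43 with *Pka-C1*, 64 with *CaMKII* and 71 with *gish*.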

How the data were processed

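RNA-seq libraries of heads, 4 per genotype, were analysed. The authors mapped reads to dm6 with TopHat (TopHat2 2.1.1, SAMtools 1.8 and FastQC in the submitters' processing notes). The methods of the paper name another version of TopHat. What the authors deposited was the whole-number read count of each gene symbol, not normalized. The counting tool and its strand setting are not given in the sources used here. One header (*w1118* replicate 2) says CPM, but its values are whole numbers and were used as counts. Reads on no gene were 43.1% to 48.9% and reads with several alignments 16.6% to 30.4% of those listed; both stayed out of library sizes. Of the symbols, 12512 were matched to the Ensembl annotation of dm6 by symbol, 3933 by an older symbol and 282 not at all. Counts were tested with edgeR 4.0.16 in R 4.3.3 (filterByExpr by genotype, TMM, glmQLFit, glmQLFTest, Benjamini-Hochberg over all genes tested). A call needed an adjusted p no higher than 0.05 and 1.5-fold or more. SE was taken as the size of the log2 change divided by root F. DESeq2 1.42.0, other scalings and filters, a replicate block, exon length offsets and left-out replicates were alternatives. Scripts were tested on simulated data. Permutation tests used scipy 1.17.1 and a pseudocount of 1 CPM. The paper speaks of 3 RNA sets and the labels of 4 replicates; all 8 libraries were used.

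Replicate numbers come from the labels. Deviations from genotype means correlated between same-numbered libraries (r = 0.437 to 0.647 over 4 pairs) and as much between other numbers of the same pair (mean 0.565). The 3-count floor covers counting error only. Genes named singly are the 8 members, *Top3β*, the 2 genes of each list with the smallest p (all, if called) and the 2 genes most like each member in pattern, of which the text gives some. Members and lists were chosen with earlier results of these data known.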

Additional observations from a re-analysis of the deposited data

Results flagged for a closer look

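The genotype difference of *gish* was not the same in the pairs of replicates. Its log2 fold change in replicates 3-4 exceeded that in replicates 1-2 by 1.29 (adjusted p = 1.79e-05 from edgeR's interaction test), with ratios by replicate number of 0.48, 0.45, 1.2 and 1.08. By p of this test it ranked 72 among the 9633 genes. With an exon length offset the difference was 1.27 (adjusted p = 1.65e-05 from edgeR).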

How the results depend on the processing

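None of the 8 genes was called with all libraries, with RLE, upper-quartile or no factors, with other low-count filters, DESeq2, limma-voom, the replicate block (4 same-numbered pairs), the pair of replicates as a term, an exon length offset, or any replicate left out; only in replicates 1-2 alone was 1 called, *gish*, also with the offset or library totals. The count over all genes was 88, and 232 with DESeq2, 368 with the replicate block, 296 with block and offset, 539 with the pair term (534 with offset), 1020 in replicates 1-2 (1016 with offset, 1204 with library totals), 722 in replicates 3-4 (661 and 714), 638 without *Top3b26* replicates 1 and 2, and 42 to 61 without single replicates. The related genes called were 0, and 1 with DESeq2, the block, block and offset, or replicates 3-4 with offset, 2 in replicates 3-4 (also with library totals) or without *Top3b26* replicates 1 and 2, 3 with the pair term (also with offset), 5 in replicates 1-2 (also with offset) and 10 there with library totals. The block changed no call of the 8 genes. Why these counts differ was not tested.

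Signs changed for several genes. *dnc* was 0.07 in replicates 3-4 (-0.05 with offset, 0.18 with library totals) and 0.08 without *Top3b26* replicates 1 and 2. *Pka-C1* was 0.11 with library totals, 0.01 in replicates 1-2, 0.15 and 0.07 in the pairs with library totals, and -0.06 to 0.04 without single replicates. *CaMKII* was -0.07 in replicates 1-2 and -0.13 there with offset, and *Fas2* -0.02 there with offset. *orb2* was 0.10 with library totals, 0.13 in replicates 3-4 (0.03 with offset, 0.24 with library totals), 0.01 in replicates 1-2 with library totals, 0.14 without *Top3b26* replicates 1 and 2, and -0.14 to 0.11 without single replicates. *gish* was -1.11 in replicates 1-2 (-1.17 with offset, -0.97 with library totals), 0.20 in replicates 3-4 (0.11 with offset, 0.31 with library totals) and 0.21 without *Top3b26* replicates 1 and 2. With library totals in replicates 3-4, adjusted p-values in edgeR were at most 0.05, under 1.5-fold, for *Nf1* (0.37, adjusted p = 0.021), *CaMKII* (0.37, 0.0237), *Fas2* (0.33, 0.0307) and *gish* (0.0401). In replicates 1-2 *Nf1* was 0.43 on that scale (adjusted p = 0.045 from edgeR). The median of all genes on that scale was itself 0.115 in replicates 3-4 and 0.151 in replicates 1-2. The share of all genes passing there by adjusted p alone was not computed. With TMM factors that share was 11.4% in replicates 3-4 and 14.3% in replicates 1-2. *Nf1* stayed positive in every genotype fit run. With all libraries its unadjusted p in edgeR was 0.0477 with RLE factors, 0.0379 with upper-quartile factors and 0.0122 with no factors. It was 0.0597 with the replicate block. Without single replicates, the other values were 0.00 to 0.22 for *rut* (lowest without *Top3b26* replicate 2, highest without *w1118* replicate 1), -0.21 to -0.01 for *dnc* (without *w1118* replicates 3 and 2), 0.02 to 0.23 for *CaMKII* (without *Top3b26* replicates 3 and 2), 0.08 to 0.16 for *Fas2*, 0.22 to 0.35 for *Nf1* and -0.56 to -0.27 for *gish* (without *Top3b26* replicates 4 and 2), none of them called. Separation without overlap was 1 gene on library totals and 0 with TMM factors. The fits with the offset inside pairs, with library totals inside pairs and without *Top3b26* replicates 1 and 2, and the TMM-scaled separation, were chosen after seeing the data.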
